A study of Gallus gallus with 2 samples.

Results

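The genes of the cytosolic ribosomal proteins were compared between hearts of chicken embryos (Gallus gallus) exposed to a compound that releases free radicals and those of embryos that received saline. Members were chosen by name alone: large subunit genes carry the prefix RPL and small subunit genes the prefix RPS, followed by the protein number or letter. This gave 64 of 13011 gene names, 40 of the large and 24 of the small subunit. The exposed embryos received 2,2-azobis(2-amidinopropane) dihydrochloride (AAPH, 2.6 µmol in 100 µL) in the air chamber of the egg, from Hamburger-Hamilton stage 35 and on alternate days up to day 10. All hearts were taken at stage 37 (day 11) from surviving embryos, and the eggs of both groups were incubated at 38 °C and 70% humidity. The labels do not give the number of hearts in a library, the sex of the embryos or a chicken strain. Each group has 1 library, so no difference below has a replicate check and no test of single genes or gene groups was possible.

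The cytosolic ribosome is built from a large subunit, which joins amino acids and holds the exit tunnel of the new chain, and a small subunit, which reads the messenger RNA. Each of its proteins is present as a single copy in the ribosome, apart from the stalk proteins RPLP1 and RPLP2, so their genes are usually expressed together and at high levels. In vertebrates most of their messenger RNAs begin with a terminal oligopyrimidine (TOP) tract, through which the mTOR kinase pathway sets their translation. Growing tissues such as the embryonic heart use much of their transcription for these genes.

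Levels are in FPKM (fragments scaled by transcript length and library total), a value per length that lets levels of genes be set side by side. FPKM of short transcripts is sensitive to fragment size, and ribosomal proteins are short, so such comparisons are approximate. FPKM does not give the number of fragments, so the depth behind each value is unknown. All FPKM added up to 1248089 in control hearts and 1042407 in AAPH hearts. Of the heart muscle markers, 13 of 17 had a value, with troponin TNNT2 at 5989 FPKM in control hearts and 5342 in AAPH hearts and cardiac actin ACTC1 at 2629 and 2598.

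All 64 ribosomal protein genes had a value above 0 in both libraries and a mean of 1 FPKM or more, so none was lost to the filter on low values. In the control library the 40 large subunit genes had a median of 2076 FPKM and the 24 small subunit genes 2512 FPKM. In the AAPH library the medians were 1470 and 1767 FPKM. Together the 64 genes held 11.2% of all FPKM in control hearts and 9.11% in AAPH hearts. The large subunit accounted for 6.77% and 5.47%, and the small subunit for 4.47% and 3.63%.

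**Figure D1:**
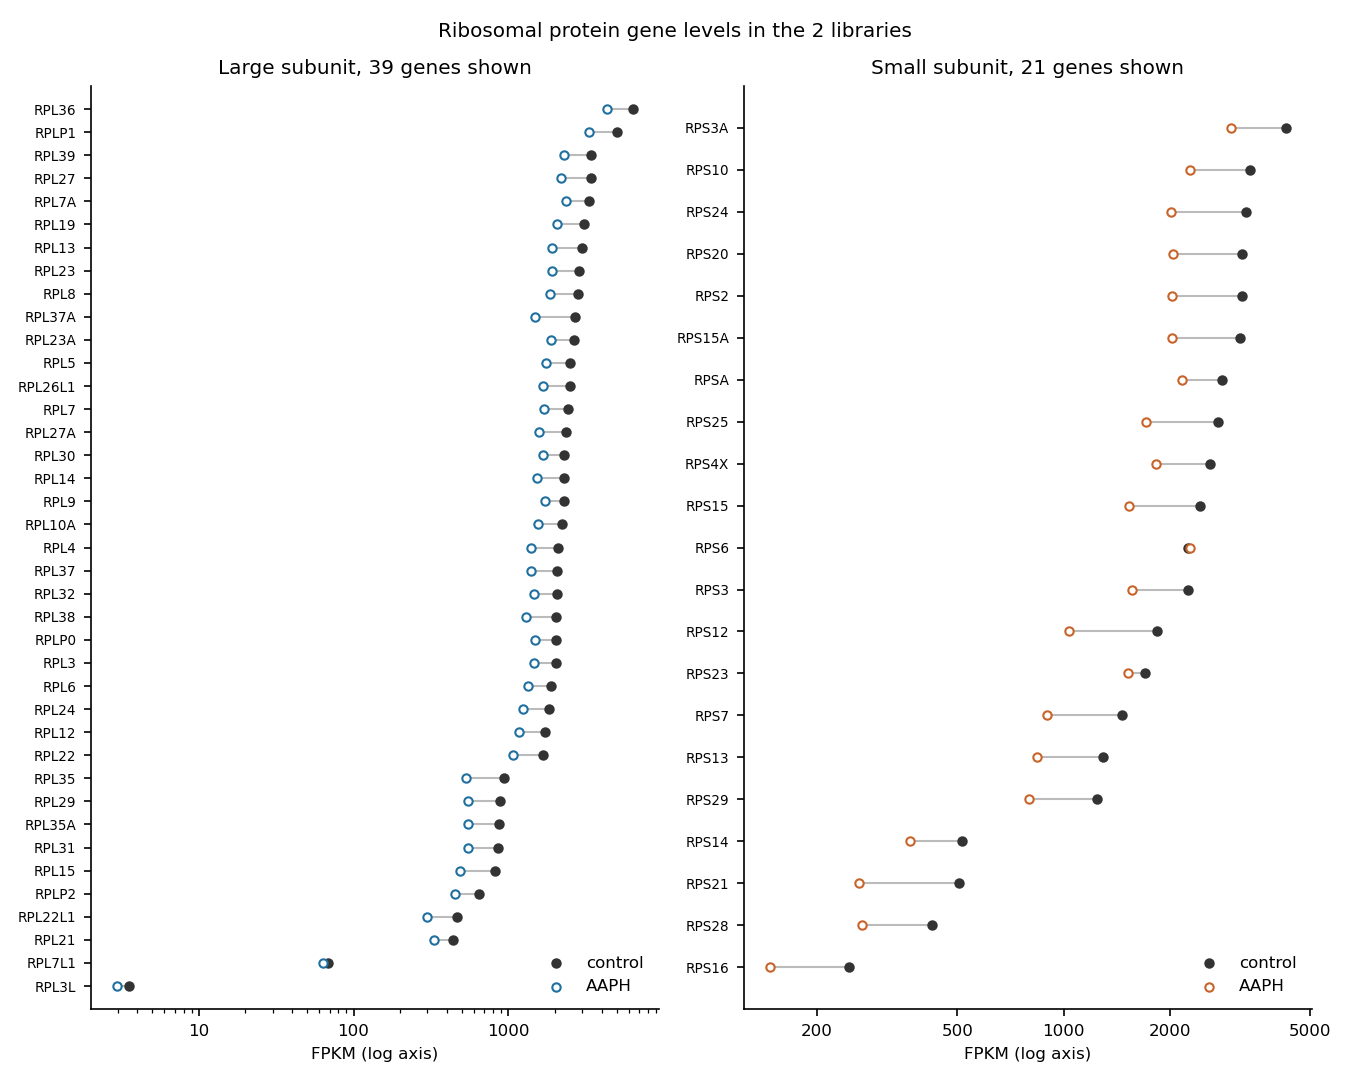
FPKM (log axis) of each of 39 large subunit genes (left) and 21 small subunit genes (right), ordered by the control level. Filled points are the control library and open points the AAPH library; the open point lies to the left in every gene shown except RPS6, which was at 2255 and 2281 FPKM.

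The ratio of each gene is given as log2((AAPH FPKM + 1)/(control FPKM + 1)), and genes were called lower or higher when they differed by 1.5-fold or more. Of the 64 genes, 28 were lower and 0 higher, against 3.93% lower and 2.73% higher among 10106 genes with a mean of 1 FPKM or more. Ratios below 0 were found in 63 of the 64 genes and in 49.5% of all tested genes. The median log2 ratio of the 64 was −0.58 and their quartiles −0.65 and −0.50, against 0.0039 over all tested genes. The 28 lower genes made up 7.05% of the 397 genes that were lower, while ribosomal protein genes were 0.633% of the genes tested.

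The limit of 1.5-fold, a log2 ratio of 0.585, runs through the densest part of these ratios. RPS13 (log2 ratio −0.62), RPL8 and RPLP1 (−0.59 each) lay just beyond it, and RPL39, RPL27A and RPL14 (−0.58 each) just within it. The count of 28 thus separates genes with nearly the same ratio, and it fell to 2 when the values were rescaled to TPM (FPKM scaled to the same total in each library). That rescaling moved the median of all genes up by 0.23. The ribosomal median was then −0.32 against 0.23 over all genes, with 61 of the 64 ratios below 0 against 20.8% of all genes, 2 lower genes against 1.6% and 0 higher genes against 8.4%. With the scale set without haemoglobin and mitochondrial-genome genes, 3 of the 64 were lower against 1.78% of all genes and 0 higher against 8.36%. Rescaling multiplies all values of a library by the same factor and so shifts all ratios nearly alike. It cannot remove the distance between the ribosomal median and that of all genes, while the number past 1.5-fold depended on the scale.

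Genes of high level had lower ratios in general, so the ribosomal genes were set beside other genes of like level. Protein genes of the mitochondrial genome were left out of these others. Without the 4 paralog genes described below, the ribosomal genes spanned mean levels from 197 to 5359 FPKM, and 294 other genes lay in that range. Within it the others were lower in level, with a control median of 380 FPKM against 2265 FPKM in these ribosomal genes. The median log2 ratio of these others was −0.20, and 220 of the 294 lay below 0. Of them, 16 (5.44%) were lower at 1.5-fold and 2 higher. After rescaling to TPM their median was 0.06, while that of the ribosomal genes without paralogs was −0.32. The gap was present along the range of levels. At a mean of 200 to 1000 FPKM the median was −0.66 in 10 ribosomal genes and −0.18 in 236 others. At 1000 to 2000 FPKM it was −0.56 in 22 and −0.37 in 31, and at 2000 to 3000 FPKM −0.57 in 23 and −0.17 in 11. The 4 ribosomal genes above 3000 FPKM lay at −0.57 and 12 others, up to 7000 FPKM, at −0.17. RPS16, at a mean of 197 FPKM, lay below these ranges.

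**Figure D2:**
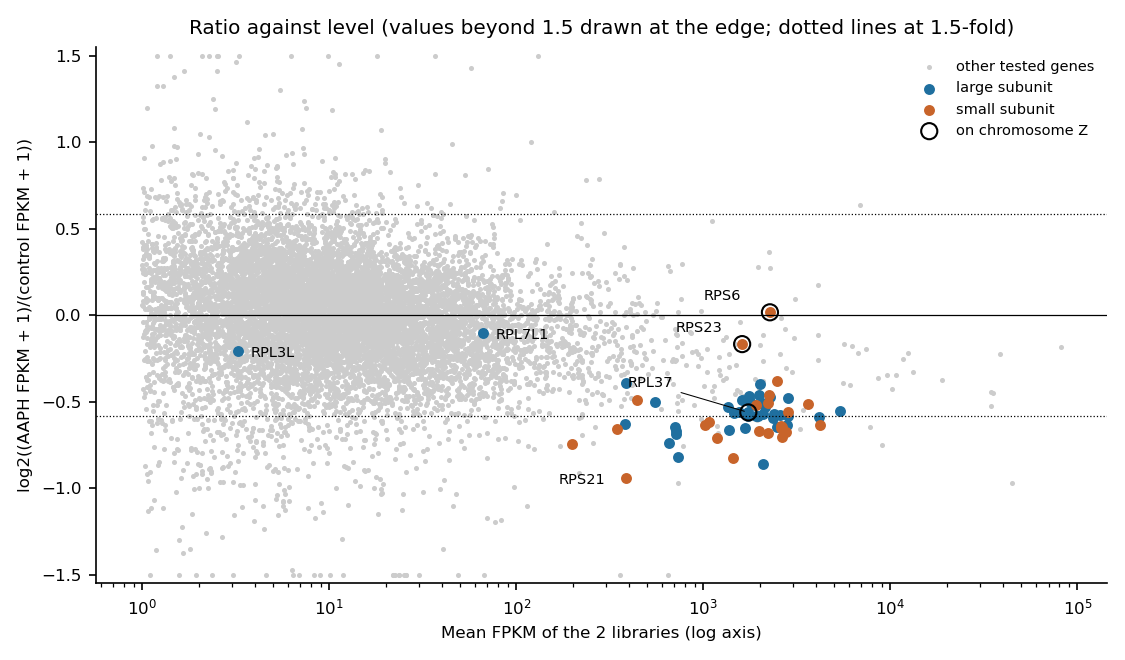
The log2 ratio of AAPH to control (vertical axis) against the mean FPKM of the libraries (log axis) for 10106 tested genes. Large subunit genes are in blue, small subunit genes in orange, and the ribosomal genes on chromosome Z are ringed. Other Z genes are not marked. Most ribosomal genes form a compact group at high level between −0.35 and −0.75, while RPS6, RPS23, RPL7L1 and RPL3L lie nearer to 0.

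The large and small subunits had similar ratios. The median log2 ratio was −0.57 in the large and −0.64 in the small subunit, a difference of 0.07 that does not depend on the scale of the libraries. At 1.5-fold, 13 of 40 large subunit genes and 15 of 24 small subunit genes were lower, against 3.93% of all tested genes. The limit lies between the medians of the subunits. After rescaling to TPM, 1 of 40 and 1 of 24 were lower, against 1.6% of all genes. The quartiles overlapped, at −0.63 and −0.50 in the large and −0.67 and −0.51 in the small subunit. Summed FPKM of the large over the small subunit was 1.51 in both libraries (1.513 in the control and 1.506 in the AAPH library). These sums cover 40 large and 24 small subunit genes and so depend on the number of names. Mean FPKM per gene of the large over the small subunit was 0.908 in the control and 0.903 in the AAPH library. With no replicate, it cannot be said whether the difference of 0.07 between the median ratios exceeds the spread between hearts.

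In the large subunit the lowest ratio belonged to RPL37A, a zinc-binding protein. It was at 2686 FPKM in control hearts and 1479 in AAPH hearts (log2 ratio −0.86). RPL35, at the rim of the exit tunnel, was at 935 and 530 FPKM (−0.82). RPL15, one of the genes mutated in the human red cell disorder Diamond-Blackfan anaemia, was at 817 and 489 FPKM (−0.74). RPL37A and RPL35 lay beyond −0.75, apart from the bulk of their subunit, and RPL15 lay at the edge of that bulk. RPL29 followed at 882 and 548 FPKM (−0.69), and RPL35A, another Diamond-Blackfan gene, was at 873 and 548 (−0.67). RPL22, an RNA-binding protein that is not essential for the ribosome in mice, was at 1681 and 1063 FPKM (−0.66).

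The acidic stalk, which recruits elongation factors, had ratios within the range of the other core large subunit genes. RPLP0, the base of the stalk, was at 2042 FPKM in control hearts and 1475 in AAPH hearts (−0.47). RPL12, which sits beside it, was at 1735 and 1172 FPKM (−0.57). The stalk tips differed in level: RPLP1 was at 5011 and 3327 FPKM (−0.59). RPLP2, its dimer partner in the ribosome, was at 644 and 454 FPKM (−0.50). The level of RPLP1 was thus well above that of RPLP2 in both libraries, although the proteins pair with each other.

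Proteins around the peptide path had ratios on both sides of the subunit median. RPL3, next to the peptidyl transferase centre, was at 2032 and 1455 FPKM (−0.48). RPL4, which lines the exit tunnel, was at 2080 and 1391 FPKM (−0.58). Of 9 listed proteins of the tunnel and its rim 7 had a value, from −0.82 to −0.48, with a median of −0.58. The 3 lower at 1.5-fold were RPL35 (−0.82) and RPL22 (−0.66), described above, and RPL31 (−0.65). RPL39, also in the tunnel, was at 3402 and 2270 FPKM, and RPL23A at the rim was at 2637 and 1896 (−0.48). The RefSeq table gives the name RPL39 as a synonym of RPL39L, a name on the paralog list. RPL5, which carries the 5S RNA into the ribosome and can bind MDM2, was at 2516 and 1743 FPKM (−0.53); its partner RPL11 has no value under that name.

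The highest ratios of the core large subunit were found in RPL21 and RPL9. RPL21 was at 437 FPKM in control hearts and 333 in AAPH hearts (−0.39). RPL9 was at 2276 and 1726 FPKM (−0.40). RPL30 (−0.46), RPLP0 (−0.47) and RPL23A, RPL7A and RPL3 (−0.48 each) followed, so the core large subunit genes ran from −0.86 to −0.39 without an exception at or above 0. RPL36 was the highest in level of all 64 genes, at 6373 and 4344 FPKM (−0.55), and RPL27 was at 3401 and 2194 (−0.63). The other large subunit genes given here, RPL38, RPL13, RPL31, RPL8, RPL27A, RPL14, RPL19, RPL23, RPL24, RPL10A, RPL7, RPL32 and RPL6, had ratios from −0.65 to −0.49, and RPL37 is described with chromosome Z.

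In the small subunit the widest range of ratios was seen. RPS21 was at 505 FPKM in control hearts and 263 in AAPH hearts (log2 ratio −0.94), the lowest of all 64. RPS12, a protein of the head of the subunit, was at 1843 and 1039 FPKM (−0.83). RPS16, whose tail reaches the peptidyl-tRNA site, was at 247 and 147 FPKM (−0.74) and had the lowest level of the subunit in both libraries. RPS7, a Diamond-Blackfan gene, was at 1467 and 896 FPKM (−0.71). RPS24, another, was at 3276 and 2010 FPKM (−0.70). RPS25, which some viral messengers need for initiation, was at 2732 and 1706 FPKM (−0.68).

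Toward the other end of the small subunit, RPSA, also known as the laminin receptor precursor, was at 2810 FPKM in control hearts and 2158 in AAPH hearts (−0.38). RPS14, a gene lost in the human 5q- syndrome, was at 515 and 367 FPKM (−0.49). Among the remaining genes of high and low level, RPS3A was at 4265 and 2984 FPKM (−0.51), and RPS28 at 423 and 268 (−0.66). RPS4X was at 2596 and 1828 FPKM (−0.51). RPS15, RPS2, RPS20, RPS15A, RPS29, RPS13, RPS10 and RPS3 had ratios from −0.67 to −0.52.

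By position in the small subunit, the 9 head proteins with a value had a median log2 ratio of −0.66 and the 14 body and platform proteins −0.57. At 1.5-fold 7 head (77.8%) and 7 body and platform genes (50%) were lower, against 3.93% of all tested genes. The body and platform list includes the Z-linked RPS6 (0.02) and RPS23 (−0.17), the highest ratios of the subunit, and RPS21 (−0.94), the lowest. No median was taken without the Z-linked genes. Proteins that also exist in bacteria and those that do not had close medians within each subunit. They were −0.53 (13 genes) and −0.58 (23 genes) in the large subunit, and −0.63 (12 genes) and −0.67 (11 genes) in the small subunit. Of 15 listed Diamond-Blackfan genes 9 had a value, with a median of −0.66 and 7 (77.8%) lower, against 43.8% of the 64 members. The highest ratios of the 9 were those of RPL5 (−0.53) and RPS10 (−0.56). After rescaling to TPM 0 of the 9 were lower. The ranges of these groups overlapped within each subunit.

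The small subunit genes on chromosome Z had the highest ratios of their subunit. RPS23, a protein of the decoding centre, was at 1704 FPKM in control hearts and 1518 in AAPH hearts (−0.17). RPS6, the substrate of the S6 kinases downstream of mTOR, was at 2255 and 2281 FPKM (0.02), the 1 ratio above 0 among the 64. RPL37, a zinc-binding protein of the large subunit, was at 2073 and 1404 FPKM (−0.56) and so had the ratio of a typical autosomal ribosomal gene. These 3 are the Z-linked members according to the RefSeq table (assembly GRCg7b).

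Other Z genes had higher ratios in the AAPH library as a whole. The median log2 ratio was 0.31 over 399 other Z genes and 0.0025 over 8337 other autosomal genes, a distance of 0.30. Male chickens carry a pair of Z chromosomes and females a single copy, and the sex of the embryos is not given, so the makeup of the libraries by sex cannot be told apart from the treatment. Relative to the median of other Z genes, RPS6 lay at −0.29, RPS23 at −0.47 and RPL37 at −0.87. The 57 ribosomal genes elsewhere, without paralogs, lay −0.58 from the median of other autosomal genes. All 3 Z-linked ribosomal genes were thus below the median of their chromosome, RPS6 and RPS23 by a smaller distance than the autosomal median and RPL37 by a larger one. The SD of the log2 ratio over the other Z genes was 0.30, so RPS6 lay within 1 SD of their median. After rescaling to TPM, RPS6 was at 0.28 and RPS23 at 0.09, both above 0.

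Among the autosomes the ratio did not follow chromosome size. With paralogs included, the median was −0.56 in 27 ribosomal genes on chromosomes 1 to 5, −0.65 in 8 on chromosomes 6 to 10 and −0.57 in 26 on the smaller ones. Other genes had medians of 0.03, 0.01 and −0.04 on the same chromosomes. The ribosomal genes lay on 24 autosomes in addition to Z.

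Of the 7 listed paralogs of core proteins, 4 had a value under their own names. RPL3L, which replaces RPL3 in mammalian skeletal muscle and heart, was at 3.57 FPKM in control hearts and 2.96 in AAPH hearts (−0.21). RPL3 itself was at 2032 and 1455 FPKM, so RPL3L was a minor form in both libraries. RPL7L1 was at 68.7 and 63.9 FPKM (−0.10), the highest ratio of the large subunit, and above 0 at 0.15 after rescaling to TPM. RPL22L1, the paralog of RPL22, was at 464 and 299 FPKM (−0.63), close to the ratio of RPL22. RPL26L1, which the RefSeq table pairs with the name RPL26, was at 2500 and 1684 FPKM (−0.57) and had the level of a core gene. Reads can be shared between such copies, so the split between RPL22 and RPL22L1 or RPL3 and RPL3L is uncertain.

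Levels of the genes within a library differed far more than the equal use of their proteins in the ribosome. Without paralogs, the 60 genes ran from 247 to 6373 FPKM in the control library, a 25.8-fold range, and from 147 to 4344 in the AAPH library, a 29.5-fold range. The SD of log2(FPKM + 1) over genes was 0.95 in control hearts and 0.98 in AAPH hearts. It was 0.81 and 0.83 in the large subunit and 1.13 and 1.20 in the small subunit. Of the 60 genes, 45 lay within 2-fold of the median of their subunit in each library. The subunit medians used here and below are those of all members, paralogs included.

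The order of levels was nearly the same in both libraries. Over the 60 genes, Pearson's r of log2(FPKM + 1) between the libraries was 0.989 and Spearman's rho 0.962, as a description across genes that share library and depth. In the control library RPS16 was at 0.098 times the small subunit median, RPS28 at 0.168, RPS21 at 0.201 and RPS14 at 0.205. In the AAPH library they were at 0.083, 0.152, 0.149 and 0.208 times. At the other end RPL36 was at 3.07 times the large subunit median in control hearts and 2.96 in AAPH hearts, and RPLP1 at 2.41 and 2.26. The same genes were thus under-represented and over-represented in both libraries.

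A gene's level relative to its subunit median does not depend on the scale of the libraries. Between the libraries this relative level moved by less than 0.2 on the log2 scale in 51 of the 60 genes and by less than 0.1 in 31. Relative to its subunit, RPS6 was higher in the AAPH library by 0.52 and RPS23 by 0.34. RPS21 (−0.43), RPL37A (−0.36), RPS12 and RPL35 (−0.32 each), RPL15 and RPS16 (−0.24 each) and RPS7 (−0.20) were relatively lower. RPS6 went from 0.898 to 1.29 times the small subunit median, which was the largest change of relative level among the 60 genes, and RPS21 from 0.201 to 0.149. The log2 ratio had a weak relation to level within the 60 genes (Pearson's r 0.24, Spearman's rho 0.18), again as a description across genes.

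**Figure D3:**
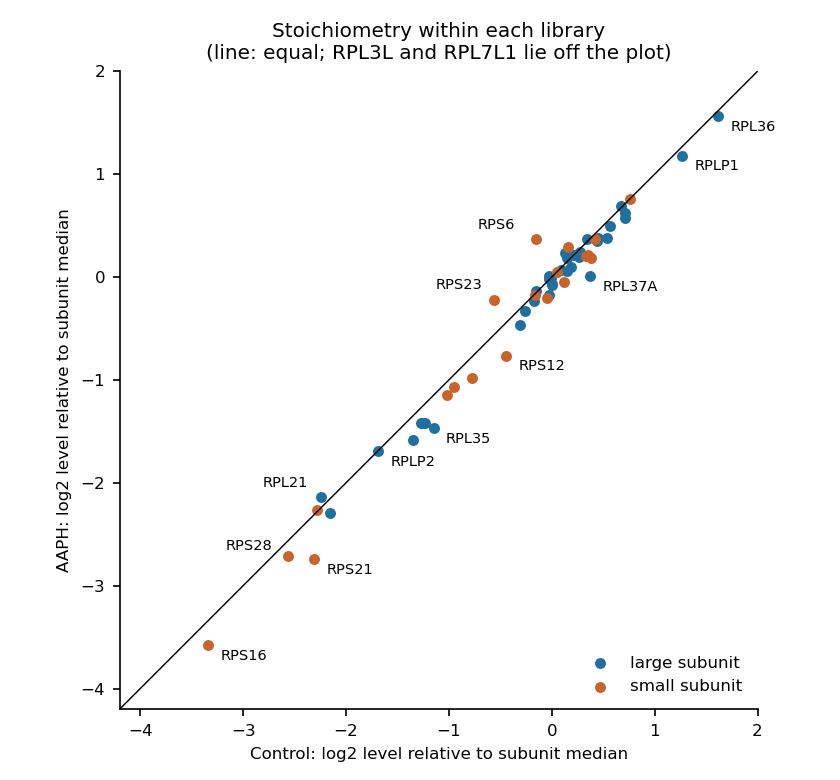
Level of each gene shown, relative to the median of its subunit, on the log2 scale, in the control library (horizontal axis) and the AAPH library (vertical axis), large subunit in blue and small subunit in orange. Points lie along the line of equality, with RPS6 and RPS23 above it and RPS21, RPS12, RPL37A and RPL35 below it.

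Of the 64 names, 41 rest on 1 assembled transcript and 23 on several. In 12 of these 23, at least 2 transcripts had a mean of 100 FPKM or more, and in 4 of the 12 the share of a transcript differed by 5 percentage points or more between the libraries. RPS24 had 3 transcripts, at 1301, 1061 and 913 FPKM in control hearts and 679, 551 and 780 in AAPH hearts. The third of these thus held 27.9% of RPS24 in control hearts and 38.8% in AAPH hearts, with a log2 ratio of −0.23 against −0.94 and −0.94 for the others. RPS24 is known for alternative splicing of its last exons in mammals.

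In RPL9 the larger of 2 transcripts held 78.4% of the gene in control hearts and 85.1% in AAPH hearts, and in RPL7A 66.1% and 60.8%. In the 8 genes below that threshold the largest move was 3.21 percentage points. Transcripts of a gene can share reads, and the files hold no intervals for them, so the error of these shares is not known.

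**Figure D4:**
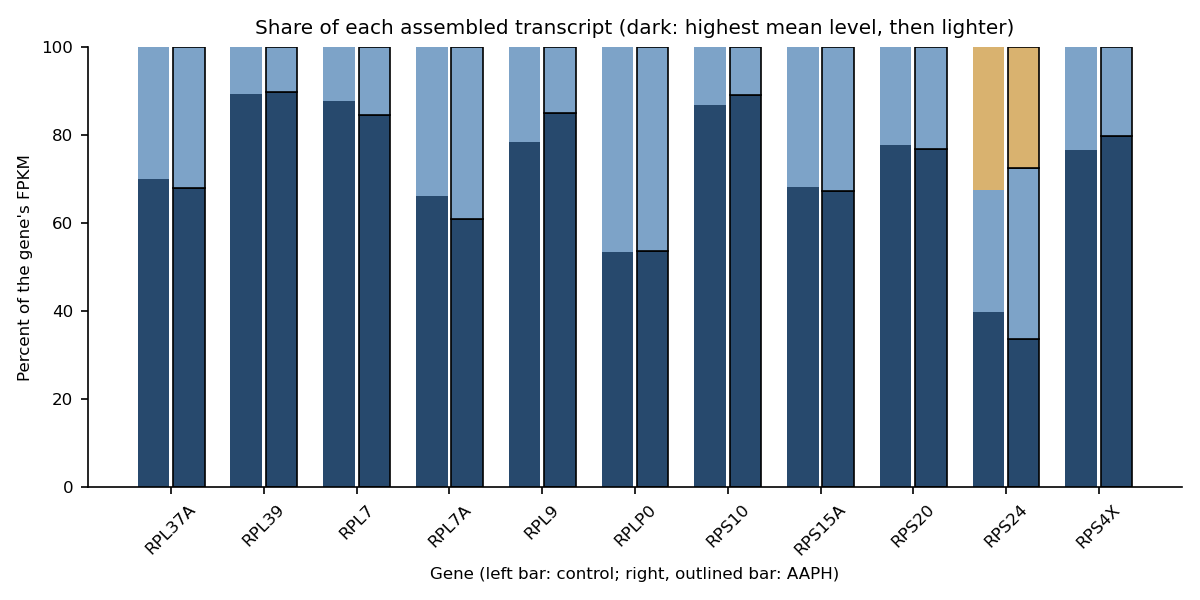
Percent of the FPKM of each gene held by each of its assembled transcripts, for 11 of the 12 genes with 2 or more transcripts of 100 FPKM or more; the left bar is the control library and the outlined right bar the AAPH library. RPS24 shows the largest move, in the transcript that went from 27.9% to 38.8%.

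Other translation genes with TOP messengers in mammals also had ratios below 0. Of 22 listed genes 10 had a value, with a median level of 815 FPKM in control hearts. All 10 were below 0, with a median log2 ratio of −0.46, 2 lower at 1.5-fold and 0 higher. Over all tested genes 49.5% were below 0 and 3.93% lower. Of the 294 other genes in the ribosomal range of levels, a set that includes these, 220 were below 0 and 16 (5.44%) lower, with a median of −0.20. The median control level of those 294 was 380 FPKM. EEF1B2, which recharges elongation factor 1 with GTP, was at 978 FPKM in control hearts and 578 in AAPH hearts (−0.76). NPM1, a nucleolar chaperone of ribosome assembly, was at 1450 and 899 FPKM (−0.69). EIF3H, a subunit of initiation factor 3, was at 365 and 259 FPKM (−0.49). GNB2L1, the gene of the small subunit protein RACK1, which the name rule does not reach, was at 1800 and 1322 FPKM (−0.45). The highest ratios of the list were those of NAP1L1, a histone chaperone, at 200.5 and 195.8 FPKM (−0.03), of the elongation factor EEF2 at 748 and 628 (−0.25), and of the poly(A)-binding protein PABPC1 at 882 and 723 (−0.29). After rescaling to TPM the median of the list was −0.20, with 8 of 10 below 0, and NAP1L1 and EEF2 were above 0.

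Mitochondrial ribosomal proteins, which are nuclear genes of a separate ribosome, had a median log2 ratio of −0.21 in 57 genes. At 1.5-fold 1 of them (1.75%) was lower and 1 higher, against 3.93% lower and 2.73% higher over all tested genes. After rescaling to TPM their median was 0.05. The cytosolic genes thus lay lower than this family, but the families differ in level. Their median levels in control hearts were 2250 FPKM for the cytosolic and 71.2 FPKM for the mitochondrial genes. The comparison is not matched for level, and no test of the difference was possible with 1 library per group.

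**Figure D5:**
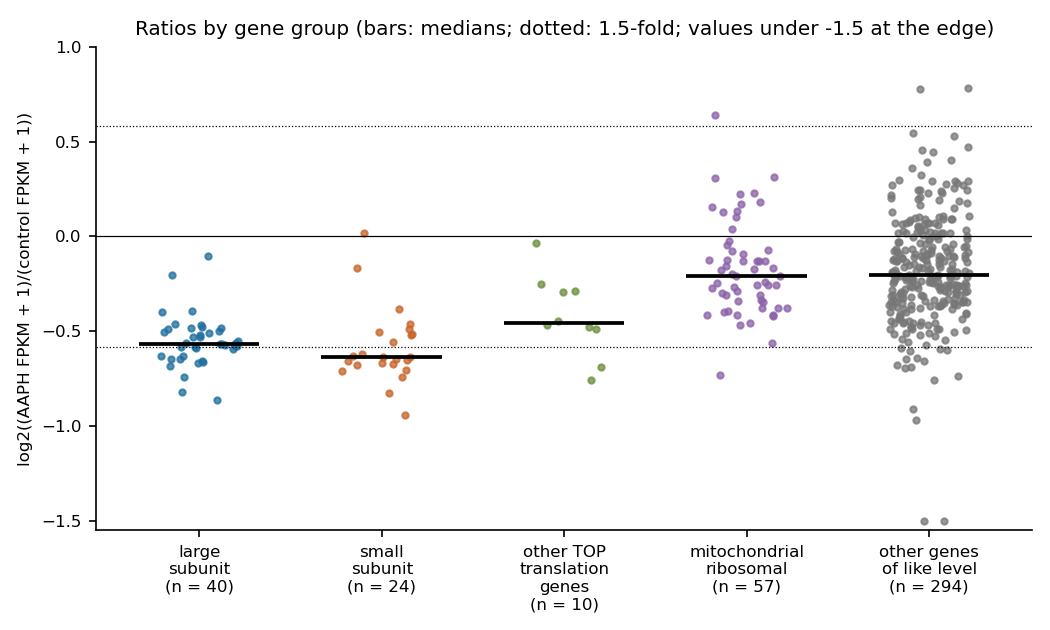
The log2 ratio of AAPH to control for the large subunit, the small subunit, 10 other TOP translation genes, 57 mitochondrial ribosomal protein genes and 294 other genes of like level. Each point is a gene and each bar a median. The 294 others share the range of levels of the ribosomal genes, not their median level, and include the 10 TOP genes. The medians are −0.57, −0.64, −0.46, −0.21 and −0.20 in that order.

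Markers of other cells had medians below 0, but the genes within each list differed in direction. At 1.5-fold, 3.93% of all tested genes were lower and 2.73% higher. Of 23 listed erythroid genes 12 had a value; 5 were lower at 1.5-fold and 0 higher, the median was −0.40 and their summed FPKM was 3666 in control hearts and 2481 in AAPH hearts. The lower genes were 4 of 5 haemoglobins, among them HBE1 at 965 and 492 FPKM, and the transferrin receptor TFRC at 66.3 and 38.6. The haemoglobins made up 3427 and 2275 FPKM of the sum, and the other 7 genes 238 and 206. Of these 7, the membrane protein genes GYPC (log2 ratio 0.09) and RHAG (0.12) and the nuclear protein gene HEMGN (0.13) were above 0. Besides TFRC, the genes EPB42 (−0.38), SPTB (−0.25) and LMO2 (−0.08) were below 0. The defining genes GATA1, KLF1 and ALAS2 have no value under these names.

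Of 13 neuron and neural crest genes 9 had a value. Of these, 4 (44.4%) were lower, against 3.93% of all tested genes, and 0 higher, against 2.73%. Their median was −0.39 and their sums were 180.2 and 133 FPKM, with ELAVL4 above 0 (0.03). Of 11 liver genes 4 had a value, with 2 lower, 0 higher and sums of 171 and 85.1 FPKM. The apolipoprotein gene APOA1 carried most of that sum, at 156 and 72.0 FPKM, while the other 3 genes came to 15.1 and 13.1 and transferrin (TF) had a ratio of 0.26. On the TPM scale the lower genes were 4 erythroid (33.3%), 2 neuron and neural crest (22.2%) and 1 liver gene (25%), against 1.6% of all tested genes. The 13 heart muscle markers had a median log2 ratio of −0.17, with 1 (7.69%) lower, the myosin heavy chain MYH7 (−0.76), and 0 higher. On the TPM scale 0 of them were lower, against 1.6% of all genes, and 1 was higher, NPPB (0.62), against 8.4%. A count of 1 higher among 13 genes is near that share. The median of the 13 was then 0.09, against 0.23 over all genes, with 11 of 13 above 0. In whole tissue, fewer cells of a type and less RNA per cell cannot be told apart, and the part of these cells in the ribosomal ratios was not tested.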

How the data were processed

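RNA-seq of embryonic chicken heart was deposited as 2 tables, 1 per group. Per the submitters' processing notes, the tools were TopHat2 2.1.1, Cufflinks 2.2.1, Cuffdiff and bcl2fastq, with build and annotation not given in the sources used here. Per the file headers, the authors deposited FPKM for each of 27335 assembled transcripts. Transcripts with the same name were summed here (13011 names); 1968 transcripts without a name, holding 18.2% of control and 20.6% of AAPH FPKM, were left out. Ribosomal proteins listed without a name or under an identifier alone were therefore not analysed here: of 46 core large subunit names 36 had a value, and of 32 small subunit names 23.

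Ratios used a pseudocount of 1 and the 10106 genes whose mean FPKM was at least 1. With 1 library per group no p-value, SD between replicates or test was computed, and counts are set beside those of all tested genes. Depth is unknown. Names were matched to the RefSeq table (GRCg7b) for chromosomes: 60 members by symbol and 4 by synonym. Counts and medians cover all members, but 4 of them are not reported by name here. In the lists of TOP translation and mTOR pathway genes, the 3 with the largest change each way were named; among members, the 6 lowest and highest ratios and the 3 highest and lowest levels of each subunit, the stalk, RPL5, the paralogs and the Z-linked genes were given in full, apart from those not reported by name. Other genes, cell type markers included, were named for their role, to account for other members or to show how a list's genes differ, after their values were seen. Members and lists were chosen with earlier results of these data known. The counting step was tested on simulated data. The tools here were pandas 2.3.3 and numpy 2.4.6 in Python 3.11.15, with scipy 1.17.1 for correlations and matplotlib 3.10.9 for figures.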

Additional observations from a re-analysis of the deposited data

How the results depend on the processing

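Rescaling changed the size of the ratios and the counts. The distance between subunits kept its value of 0.07, which a common factor per library cannot change apart from the pseudocount. After rescaling to TPM the count of lower genes was 2, not 28, and the medians were −0.32 for all members, −0.31 for the large and −0.38 for the small subunit. With the scale set without genes of haemoglobin and of the mitochondrial genome 3 genes were lower, and the medians were −0.34, −0.33 and −0.40. The median over all genes went up by 0.23 and 0.21 under them. Centring by the median of ratios, a pseudocount of 0.1, no filter on low values, a mean of 5 FPKM or more, the highest transcript per name, and leaving out paralogs or Z-linked genes gave 27 to 33 lower genes, and 0 higher genes were counted under any of the settings run. The ratios of the 37 members chosen by the naming rule moved by 0.1 or more under each rescaling, and 4 of them did so with the highest transcript per name. Without paralogs the SD of log2 FPKM over members was 0.95 in the control and 0.98 in the AAPH library in place of 1.56 and 1.53. Without names of several transcripts 19 of the 41 genes left were lower, the sum of the large over the small subunit was 1.72 in the control and 1.67 in the AAPH library, and the SDs were 1.79 and 1.75.

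Splits by protein length at 160 residues were not run, because no protein lengths were used here. The part of transcript length in the ribosomal ratios and in the range of levels was therefore not tested. No paired analysis was possible because each group has 1 library. Values move with depth by an amount that FPKM does not show.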

Other observations

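Genes that set the translation of TOP messengers had ratios near that of all genes. Of 16 listed genes of the mTOR pathway and TOP messenger binding 11 had a value, with 0 past 1.5-fold either way and a median log2 ratio of 0.01. Over all tested genes 3.93% were lower and 2.73% higher, so a count of 0 among 11 genes is near that share. The kinase gene MTOR was at 7.31 FPKM in control hearts and 7.89 in AAPH hearts, and its partner RPTOR at 4.61 and 5.83 (log2 ratio 0.28). RPS6KB1, the S6 kinase that acts on the RPS6 protein, was at 7.58 and 8.70 FPKM (0.18). TSC1, an inhibitor of mTOR complex signalling, was at 8.57 and 9.71 FPKM (0.16), and LARP1, which binds TOP messengers, at 19.6 and 19.8 (0.01). The lowest ratio was that of MLST8 at 47.5 and 37.7 FPKM (−0.33), followed by the translation repressor EIF4EBP1 at 405 and 338 and the nucleic acid-binding protein CNBP at 377 and 316 (−0.26 each). Transcript levels do not show the activity of these kinases. After rescaling to TPM the median of the list was 0.26 and that of all genes 0.23.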
